A study of Homo sapiens with 3 samples.

Results

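p53 is a transcription factor that answers stress, and 29 of its target genes, picked by symbol from the 58735 genes of the deposited table, are followed here. They were read in 3 RNA sequencing libraries, 1 per group, of a colorectal carcinoma line given as HCT116. One group carried the empty vector, another overexpressed wild-type ZEB1, and the last overexpressed the mutant ZEB1 K80R, a change of lysine to arginine. ZEB1 binds DNA through zinc fingers and is known for shutting off genes of the epithelial state. The series title places the K80R mutant in NF-κB signalling, epithelial-mesenchymal transition and inflammatory gene expression. All groups share DMEM with serum and the treatment label control, the lines were checked by immunoblot per the design text, and whether a line was a clone or a pool is not stated. With 1 library per group there was no replicate and no test of the conditions, so every difference below is between single libraries.

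p53 is held low in unstressed cells by MDM2, a ubiquitin ligase that marks it for degradation and is itself a p53 target, which closes a negative feedback loop. After DNA damage, oncogene activity or metabolic stress, p53 accumulates, binds response elements in the DNA and switches on genes that halt the cell cycle, repair DNA, lower oxidative stress or start cell death. In intestinal and colorectal cells the pathway is best known as a barrier that tumours often lose. Several of its targets, among them GDF15, SESN2 and GADD45A, are also induced by other stress factors such as ATF4.

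The response element that p53 binds carries a pair of 10-base units, each with a C and a G at fixed places around a pair of inner bases (CNNG). It was searched in windows of 250 bases before to 50 bases after RefSeq gene starts (GRCh38.p14), allowing a spacer of up to 1 base and up to 3 letters away from the consensus, with the C and the G of both units kept. The unit reads the same on both strands, so a single search covers both. Of the 29 genes, 25 had a window and 7 of these (28.0%) held such a match, against 2.91% of 27305 RefSeq genes. These matches are shown because they are the stretches near the gene starts most like the element that p53 binds, with the 4 inner bases of each unit in capitals.
DDB2: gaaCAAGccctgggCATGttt
AEN: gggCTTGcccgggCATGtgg
FAS: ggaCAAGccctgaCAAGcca
MDM2: ggtCAAGttcagaCACGttc
FDXR: gggCAGGagcgggCTTGccc
GDF15: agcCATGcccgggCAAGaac
SESN1: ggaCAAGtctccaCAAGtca

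The match of DDB2 (chr11:47214979-47214999, plus strand) alone had 0 letters off the consensus and lies in an annotated UTR exon. Those of AEN (chr15:88621306-88621325, plus, UTR exon), FAS (chr10:88991309-88991328, plus, non-coding exon) and MDM2 (chr12:68808923-68808942, plus, intron) were 2 letters off. Those of FDXR (chr17:74872996-74873015, minus, UTR exon), GDF15 (chr19:18386186-18386205, plus, coding exon of a transcript) and SESN1 (chr6:109009018-109009037, minus, intron) were 3 letters off. Exons are those of GENCODE release 29. A match is a description of the letters and not evidence of binding in these cells, and the genes were picked as known p53 targets in the first place. Only the closest match of each window was kept. Further elements, or those that lack the C or the G of a unit, would not be marked. The match of MDM2 lies in its inner promoter, known as the p53-responsive start of the gene, of which 235 bases before the first annotated exon base are shown with the match in capitals (chr12:68808767-68809001, plus strand).
MDM2 inner promoter: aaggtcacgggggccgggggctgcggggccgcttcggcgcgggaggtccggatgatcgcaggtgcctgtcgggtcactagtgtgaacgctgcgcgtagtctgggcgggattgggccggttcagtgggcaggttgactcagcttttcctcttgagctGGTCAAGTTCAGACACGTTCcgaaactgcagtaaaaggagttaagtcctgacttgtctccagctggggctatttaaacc

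The values were FPKM, a level per gene length and library size, and rest on 14764535, 14322537 and 13479517 reads for empty vector, then wild type, then K80R, the order of every triplet below. ZEB1 stood at 5.66, 9.83 and 10.3 FPKM. The labelled tissue, colon, was not seen in its defining markers: 9 of 10 colon epithelial genes, EPCAM, CDH1 and CDX2 among them, had 0 reads in all 3 libraries, and the tenth, LGALS4, had at most 3. Markers of leukocytes, endothelium, fibroblasts and hepatocytes were below 1 FPKM, except for PDGFRB and COL1A1, at 0.573, 2.19 and 1.54 and at 1.70, 0.93 and 0.68 FPKM. The empty vector library stood apart, with 1.29% of its reads on mitochondrial genes against 7.77% and 9.75%, and with 350 genes of exactly 1 read against 2705 and 2902. Rescaling to a common sum of FPKM shifted the median gene on the log2 scale by −0.39 (wild type) and −0.38 (K80R) relative to empty vector. Between K80R and wild type the shift was 0.02. That sum, meant below by a common sum unless stated otherwise, includes mitochondrially encoded genes. With those left out of the sum, the shifts were −0.07, 0.07 and 0.13. Ratios to empty vector therefore hold relative to the median gene, and the part that these library properties have in them was not tested. In bulk RNA, fewer cells expressing a gene and less RNA per cell cannot be told apart.

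All 29 genes had reads in every library, and 28 reached a mean FPKM of 1, the level from which 12605 genes were compared. The exception was TIGAR, a regulator of glycolytic flux, with 31, 39 and 37 reads and FPKM of 0.486, 0.704 and 0.691. Its ratios carried wide counting intervals (1.45, 0.881 to 2.40, for wild type against empty vector), and 42.6% of its exon bases are shared with a gene listed at 0 FPKM on the same strand, so its level is uncertain. As a group the targets were well expressed. Their median FPKM was 25.1, 23.3 and 21.7 over the 28 genes, against 5.96, 5.95 and 5.90 over all genes compared, and 24 of the 29 were at 10 FPKM or above in each library. GDF15 ranked 53rd, 32nd and 39th among the 12605 genes and CDKN1A 190th, 163rd and 197th. GDF15 alone made up 27.4%, 43.0% and 38.1% of the summed FPKM of the 29 genes, which was 1285, 1574 and 1271. Without GDF15 the sums were 932.7, 898 and 786.6, so as deposited the higher sum of the wild-type library lay in that gene. With each library brought to the same total FPKM, the sums of the 29 genes, GDF15 included, stood at 5741, 5119 and 4185. Those values are on a larger scale than the deposited sums, and by them empty vector was highest and K80R lowest. That total includes mitochondrially encoded genes. With those left out, the factors to a common sum were 1.001, 0.949 and 1.056, by which wild type was highest and empty vector lowest.

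**Figure D1:**
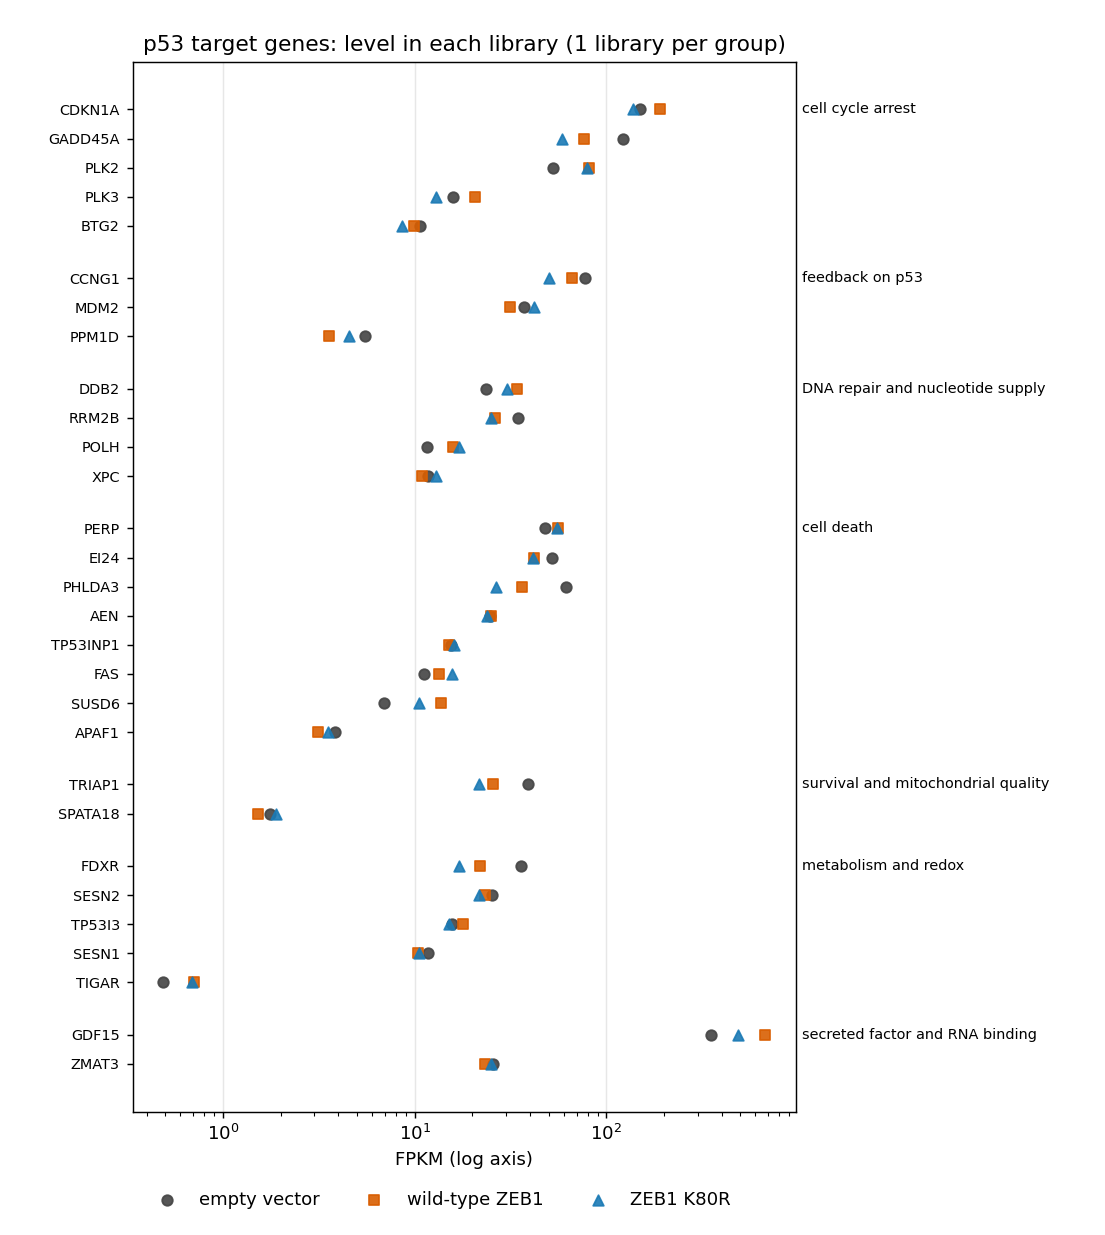
FPKM of the 29 p53 target genes on a log axis, grouped by role, with 1 point per library (circle, empty vector; square, wild-type ZEB1; triangle, ZEB1 K80R). GDF15 lies highest, at 353, 676 and 484 FPKM, TIGAR lies lowest and is the only gene below 1 FPKM in all 3 libraries, and the empty vector circle stands to the right for PHLDA3, GADD45A, FDXR and TRIAP1.

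Relative to empty vector, wild-type ZEB1 cells held more GDF15, SUSD6 and PLK2 transcript and less PHLDA3, FDXR and GADD45A, while 22 of the 28 genes lay within 1.5-fold. GDF15, a secreted stress cytokine, was 1.92-fold higher (95% counting interval 1.88 to 1.96) and SUSD6 1.997-fold (1.81 to 2.20). PHLDA3, an inhibitor of AKT signalling, stood at 0.588 of its empty vector level (0.553 to 0.625). These intervals are exact and cover counting error only. On FPKM + 1, 3 of 28 were higher by 1.5-fold or more and 3 were lower, where 14.2% and 11.1% of the 12605 genes were. The counting interval lay wholly above 1 for 10 of the 28 and wholly below 1 for 13, where this held for 35.2% and 33.6% of all genes. The median difference of log2(FPKM + 1) over the 28 genes was −0.11, against 0.01 over all genes. The shares past 1.5-fold are near those of the other genes. At a common sum of FPKM none of the 28 was 1.5-fold higher and 10 were lower, where 5.92% and 33.2% of all genes were.

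Relative to empty vector, K80R cells held less PHLDA3, FDXR, GADD45A, TRIAP1 and CCNG1, and no target was at least 1.5-fold higher on FPKM + 1. PHLDA3 stood at 0.431 of its empty vector level (0.402 to 0.461), FDXR at 0.472 (0.434 to 0.512) and GADD45A at 0.481 (0.454 to 0.510). The lower count was 5 of 28 and the higher count 0 of 28, where 13.0% and 12.6% of all genes were. PLK2 and SUSD6 lay just inside the limit, with ratios of FPKM + 1 of 1.497 and 1.466. The counting interval lay wholly above 1 for 9 of the 28 and wholly below 1 for 13, where this held for 34.7% and 33.8% of all genes. The median difference over the 28 genes was −0.07, against 0.00 over all genes. With libraries brought to a common sum 11 were lower and none higher, where 32.9% and 5.49% of all genes were. Both comparisons use the same empty vector library, so its properties enter both.

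Between the overexpression libraries fewer targets passed 1.5-fold. K80R held less PLK3 than wild type, at a ratio of 0.631 (0.569 to 0.699), and the other 27 genes lay within 1.5-fold. The lower count was thus 1 of 28 and the higher count 0 of 28, where 5.18% and 4.42% of all genes were, and the median difference was −0.06 against −0.02. GDF15 and CDKN1A were both lower in K80R, at ratios of 0.716 (0.7003 to 0.7319) and 0.718 (0.694 to 0.743), and MDM2 was higher at 1.33 (1.29 to 1.38). The counting interval lay wholly below 1 for 11 of the 28 genes and wholly above 1 for 5, where this held for 29.5% and 24.2% of all genes. Scaling to a common sum without mitochondrially encoded genes shifted the median gene of this comparison by 0.13, and then 6.96% of all genes were higher and 2.98% lower, with none of the 28 targets past 1.5-fold.

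**Figure D2:**
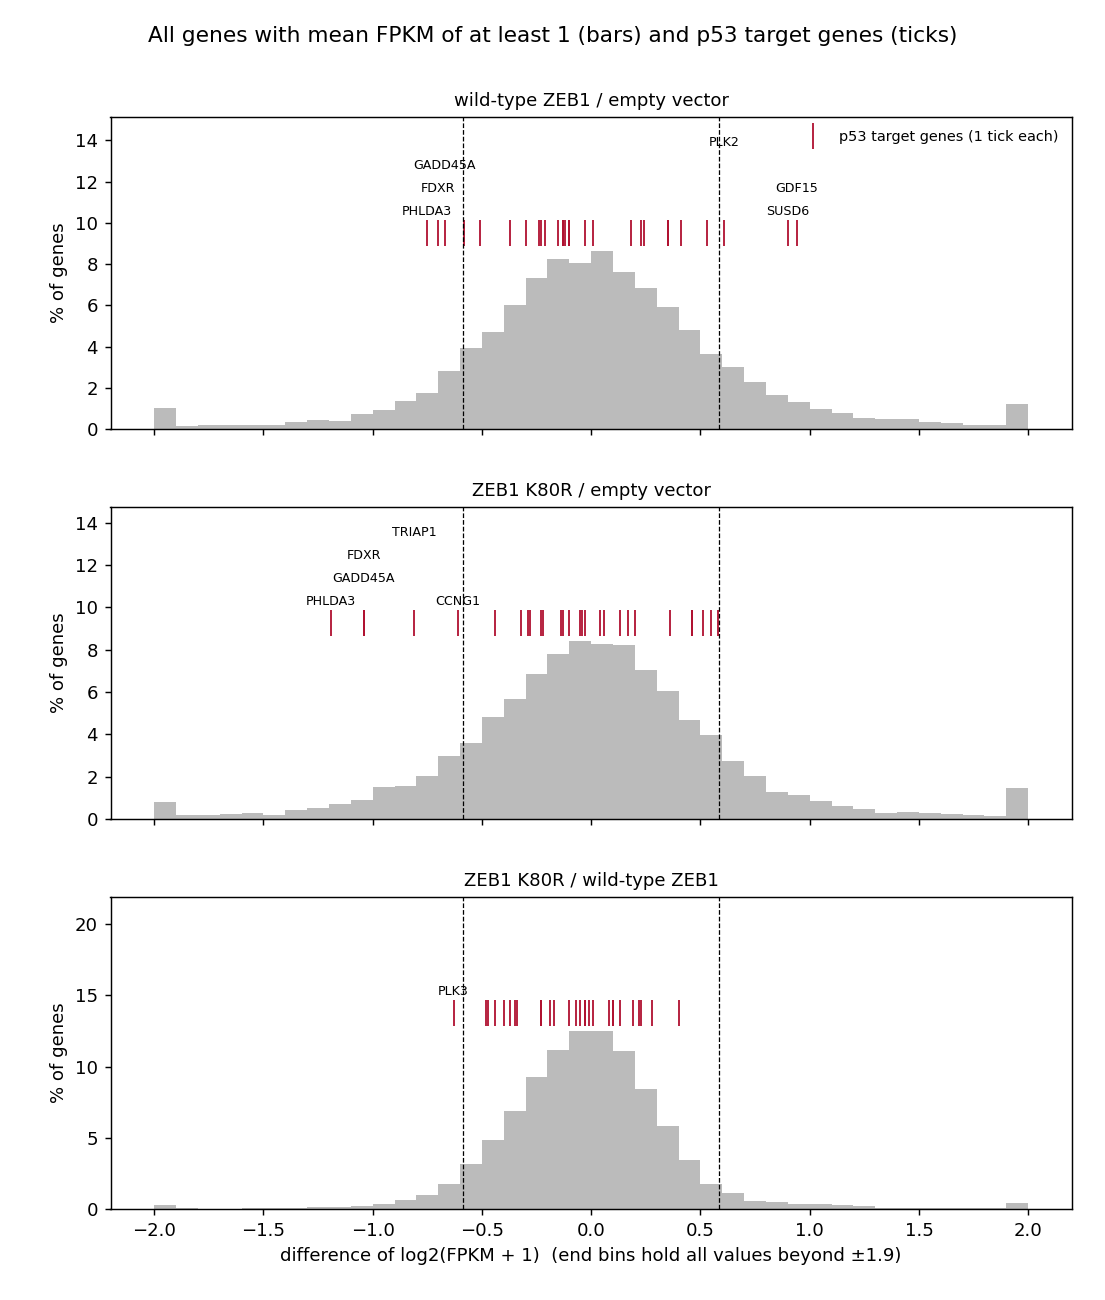
Difference of log2(FPKM + 1) for each comparison, with grey bars for the share of the 12605 genes in each bin of 0.1 and a tick for each of the 28 p53 target genes. Dashed lines mark 1.5-fold, genes beyond them are named, and the end bars collect all values beyond the axis; the ticks spread over the body of the grey distribution in each panel.

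Ranking the 3 libraries for each gene showed which patterns the targets took. The order empty vector, wild type, K80R from high to low held for 9 of the 28 targets (32.1%, against 21.2% of all genes): BTG2, CCNG1, EI24, FDXR, GADD45A, PHLDA3, RRM2B, SESN2 and TRIAP1. The reverse order held for FAS and POLH (7.14% against 19.6%). Wild type was highest and K80R lowest for CDKN1A, PLK3, TP53I3 and AEN (14.3% against 10.9%), and wild type was highest and empty vector lowest for GDF15, SUSD6, PLK2, DDB2 and PERP (17.9% against 20.6%). MDM2, XPC, TP53INP1 and SPATA18 were highest in K80R and lowest in wild type (14.3% against 10.1%). APAF1, PPM1D, SESN1 and ZMAT3 were highest in empty vector and lowest in wild type (14.3% against 17.6%). Many of these orders rest on differences within counting error, such as those of AEN and TP53INP1. They also hold for the deposited scale. Without mitochondrially encoded genes in a common sum, 6 targets, EI24, RRM2B and SESN2 among them, had the other sign in K80R against wild type. At a common sum of all genes 7 had it in wild type against empty vector, among them CDKN1A, PLK3, TP53I3 and AEN. Shares of all genes by order were not computed on those scales.

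Among the genes of cell cycle arrest, CDKN1A and GADD45A, both inhibitors of cell cycle progression, took different patterns. CDKN1A (ENSG00000124762; GRCh38, chromosome 6, 36676460 to 36687339, plus strand), which encodes the cyclin-dependent kinase inhibitor p21, had 151, 192 and 138 FPKM from 7298, 8063 and 5592 reads. Its ratio to empty vector was 1.27 (1.23 to 1.31) in wild type and 0.914 (0.882 to 0.946) in K80R. As deposited, the empty vector and K80R libraries were thus close and wild type was higher. At a common sum its difference between wild type and empty vector had the other sign, at −0.11 against 0.35 on the log2 scale. The difference between K80R and empty vector was then −0.57 in place of −0.13, so the closeness did not hold there. At a common sum without mitochondrially encoded genes the differences were 0.27 in wild type and −0.05 in K80R. After the length and GC correction they were 0.23 and −0.07, so under both the deposited pattern held.

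GADD45A (chromosome 1, 67685061 to 67688338, plus), a growth arrest and DNA damage inducible stress sensor, stood at 122, 76.1 and 58.6 FPKM. Empty vector was highest and K80R lowest, and the differences from empty vector were past 1.5-fold as deposited and at a common sum (−1.13 and −1.48). Within a library, where scaling cancels, GADD45A was 0.809, 0.397 and 0.426 times the CDKN1A level. BTG2, an antiproliferative transcription co-regulator, was at 10.7, 9.91 and 8.58 FPKM and lay within 1.5-fold throughout.

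The polo-like kinases PLK2 and PLK3, which act in stress and centrosome control, parted in K80R. PLK2 (chromosome 5, 58453982 to 58460260, minus) was at 52.9, 81.3 and 79.7 FPKM, higher than empty vector in both overexpression libraries by 1.54 (1.48 to 1.60) and 1.51 (1.45 to 1.57), while at a common sum the differences were 0.16 and 0.15. PLK3 (chromosome 1, 44800225 to 44805990, plus) was at 15.9, 20.6 and 13.0 FPKM, highest in wild type and lowest in K80R. The PLK2 level was 3.33, 3.95 and 6.14 times that of PLK3 within each library. After a correction for exon length and GC content the difference of PLK3 between K80R and wild type was −0.42 in place of −0.63, within 1.5-fold.

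Of the 3 feedback genes of p53, none was lower by 1.5-fold on FPKM + 1 in wild type against empty vector and 1, CCNG1, was in K80R, where 11.1% and 13.0% of all genes were. MDM2 (ENSG00000135679; chromosome 12, 68808176 to 68850686, plus), whose inner promoter is printed above, had 37.2, 31.6 and 42.0 FPKM from 7853, 5789 and 7438 reads. Its ratio to empty vector was 0.849 (0.820 to 0.878) in wild type and 1.13 (1.09 to 1.17) in K80R, the latter below 1 at a common sum. As deposited, MDM2 and CDKN1A thus stood in opposite orders. At a common sum both were highest in empty vector, with MDM2 at −0.68 and −0.26 and CDKN1A at −0.11 and −0.57 from it. The level of CDKN1A was 4.05, 6.07 and 3.27 times that of MDM2 in the same library. That ratio is free of library scaling and shows their relative level, not the order of either gene.

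Over all genes, the difference between K80R and wild type varied with exon length. MDM2, with 13284 exon bases, falls in the longest of 10 length bins, whose median difference was 0.14, and CDKN1A, with 3050, falls in a bin whose median was −0.13. With length and GC content corrected, the differences between K80R and wild type were 0.18 for MDM2 and −0.26 for CDKN1A, in place of 0.40 and −0.47. The signs held and the part of length in the full difference was not tested.

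PPM1D (chromosome 17, 60600183 to 60666280, plus), the WIP1 phosphatase that switches off p53 signalling, was at 5.49, 3.56 and 4.54 FPKM. Its ratio in wild type was 0.649 (0.553 to 0.760), past 1.5-fold as FPKM but within it on FPKM + 1. CCNG1 (chromosome 5, 163437569 to 163446151, plus), which encodes cyclin G1 and recruits a phosphatase to MDM2, was at 77.1, 66.4 and 50.2 FPKM, a ratio of 0.651 (0.617 to 0.687) in K80R against empty vector that lay within 1.5-fold after the length and GC correction.

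None of the 4 repair genes reached 1.5-fold on FPKM + 1 in any comparison as deposited. Of all genes, 14.2% were higher and 11.1% lower in wild type against empty vector, and 12.6% and 13.0% in K80R. In K80R against wild type 4.42% and 5.18% were. DDB2 (chromosome 11, 47214465 to 47239240, plus), the damage sensor of nucleotide excision repair with the closest match to the p53 element, was at 23.5, 34.3 and 30.5 FPKM, above empty vector by 1.46 (1.37 to 1.55) and 1.30 (1.22 to 1.38). POLH, the polymerase that copies past ultraviolet lesions, was at 11.6, 15.8 and 17.0 FPKM, with ratios of 1.36 (1.22 to 1.51) and 1.46 (1.32 to 1.62). RRM2B, a ribonucleotide reductase subunit that supplies nucleotides for repair, had ratios below 1. It was at 34.5, 26.4 and 25.1 FPKM, ratios of 0.766 (0.724 to 0.811) and 0.728 (0.687 to 0.772). XPC, which recognises distorted DNA, was at 11.7, 10.9 and 12.9 FPKM. It shares 23.8% of its exon bases with AC093495.1 (0.596, 1.14 and 1.79 FPKM) and 6.63% with LSM3 (4.57, 9.01 and 7.04), both on the other strand. With a common sum the differences from empty vector were 0.09 and −0.06 for DDB2 and −0.01 and 0.10 for POLH. DDB2 in K80R and POLH in wild type thus had the other sign. RRM2B stood at −0.82 and −0.87 on that scale, lower by more than 1.5-fold, and XPC at −0.52 and −0.28.

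The cell death genes held PHLDA3 and SUSD6, the targets with the lowest and the highest ratio of FPKM to empty vector. On FPKM + 1, GDF15 was highest in wild type (1.916 against 1.871 for SUSD6) and PLK2 in K80R (1.497 against 1.466). PHLDA3 (chromosome 1, 201464383 to 201469237, minus) was at 62.0, 36.5 and 26.7 FPKM from 3090, 1578 and 1116 reads. It shares 19.1% of its exon bases with a gene listed at 0 FPKM on the same strand, so its level is less certain. Empty vector was highest and K80R lowest, and K80R was at 0.732 (0.678 to 0.791) of wild type. SUSD6 (chromosome 14, 69611596 to 69715142, plus), a membrane protein gene induced by DNA damage, was at 6.90, 13.8 and 10.6 FPKM from 639, 1108 and 822 reads. Its ratios to empty vector were 1.997 and 1.53 (1.38 to 1.70), and K80R lay between the other libraries. With a common sum, the differences of SUSD6 from empty vector were 0.49 and 0.16, within 1.5-fold.

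FAS, the death receptor, was at 11.2, 13.4 and 15.7 FPKM, with K80R above empty vector by 1.41 (1.27 to 1.55). FAS shares 8.93% of its exon bases with ACTA2 on the other strand, which was at 3.87, 5.99 and 5.15 FPKM, and whether counting used strand is unknown here. PERP, a desmosome protein with a role in apoptosis, was at 47.8, 56.1 and 55.0 FPKM, and EI24, a protein of the endoplasmic reticulum, at 52.2, 42.0 and 41.7. For both genes the interval of K80R against wild type included 1 and those against empty vector did not. At a common sum PERP had the other sign against empty vector, at −0.22 and −0.23 in place of 0.23 and 0.20, and so had FAS in wild type, at −0.18 in place of 0.24. AEN, an apoptosis-enhancing nuclease, was at 24.8, 24.9 and 24.0 FPKM and TP53INP1, a regulator of autophagy and death, at 15.5, 15.2 and 16.1. Their counting intervals included 1 in all 3 comparisons, with bounds from 0.902 to 1.15. APAF1, the scaffold of the apoptosome, was low at 3.87, 3.13 and 3.53 FPKM.

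TRIAP1, a small inhibitor of apoptosis that acts in mitochondrial lipid transport, and SPATA18, which acts in mitochondrial quality control, differed in level. TRIAP1 (chromosome 12, 120443961 to 120446412, minus) was at 38.9, 25.6 and 21.7 FPKM, ratios of 0.660 (0.591 to 0.737) and 0.559 (0.496 to 0.628) to empty vector. On FPKM + 1 only the K80R ratio passed 1.5-fold. SPATA18 was at 1.76, 1.53 and 1.88 FPKM from 138, 104 and 124 reads, and its intervals included 1 in every comparison.

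Of the metabolism and redox genes, FDXR stood apart from the sestrins. FDXR (chromosome 17, 74862497 to 74873031, minus), the mitochondrial ferredoxin reductase, was at 36.1, 21.9 and 17.0 FPKM from 2064, 1086 and 816 reads. Its ratios to empty vector were 0.606 (0.563 to 0.652) and 0.472. The sestrins SESN1 and SESN2, which restrain mTORC1 under stress, were at 11.7, 10.5 and 10.5 and at 25.4, 23.3 and 21.6 FPKM. SESN2 stood at 2.18, 2.22 and 2.05 times SESN1. TP53I3, a quinone oxidoreductase, was at 15.7, 17.9 and 15.2 FPKM.

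GDF15 (ENSG00000130513; chromosome 19, 18374731 to 18389176, plus) was the most abundant target in every library, from 11689, 19474 and 13463 reads. K80R lay between the others, above empty vector by 1.37 (1.34 to 1.41) and below wild type. Relative to CDKN1A in the same library, GDF15 was at 2.34, 3.53 and 3.52 times, so that by this scale-free ratio both overexpression libraries were above empty vector. With a common sum its differences from empty vector were 0.48 and 0.02. After the length and GC correction its difference between K80R and wild type was −0.19 in place of −0.48. Between K80R and empty vector it was 0.71 in place of 0.46. ZMAT3, an RNA-binding zinc-finger protein that acts in tumour suppression, was at 25.5, 23.3 and 25.0 FPKM and lay within 1.5-fold in every comparison.

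**Figure D3:**
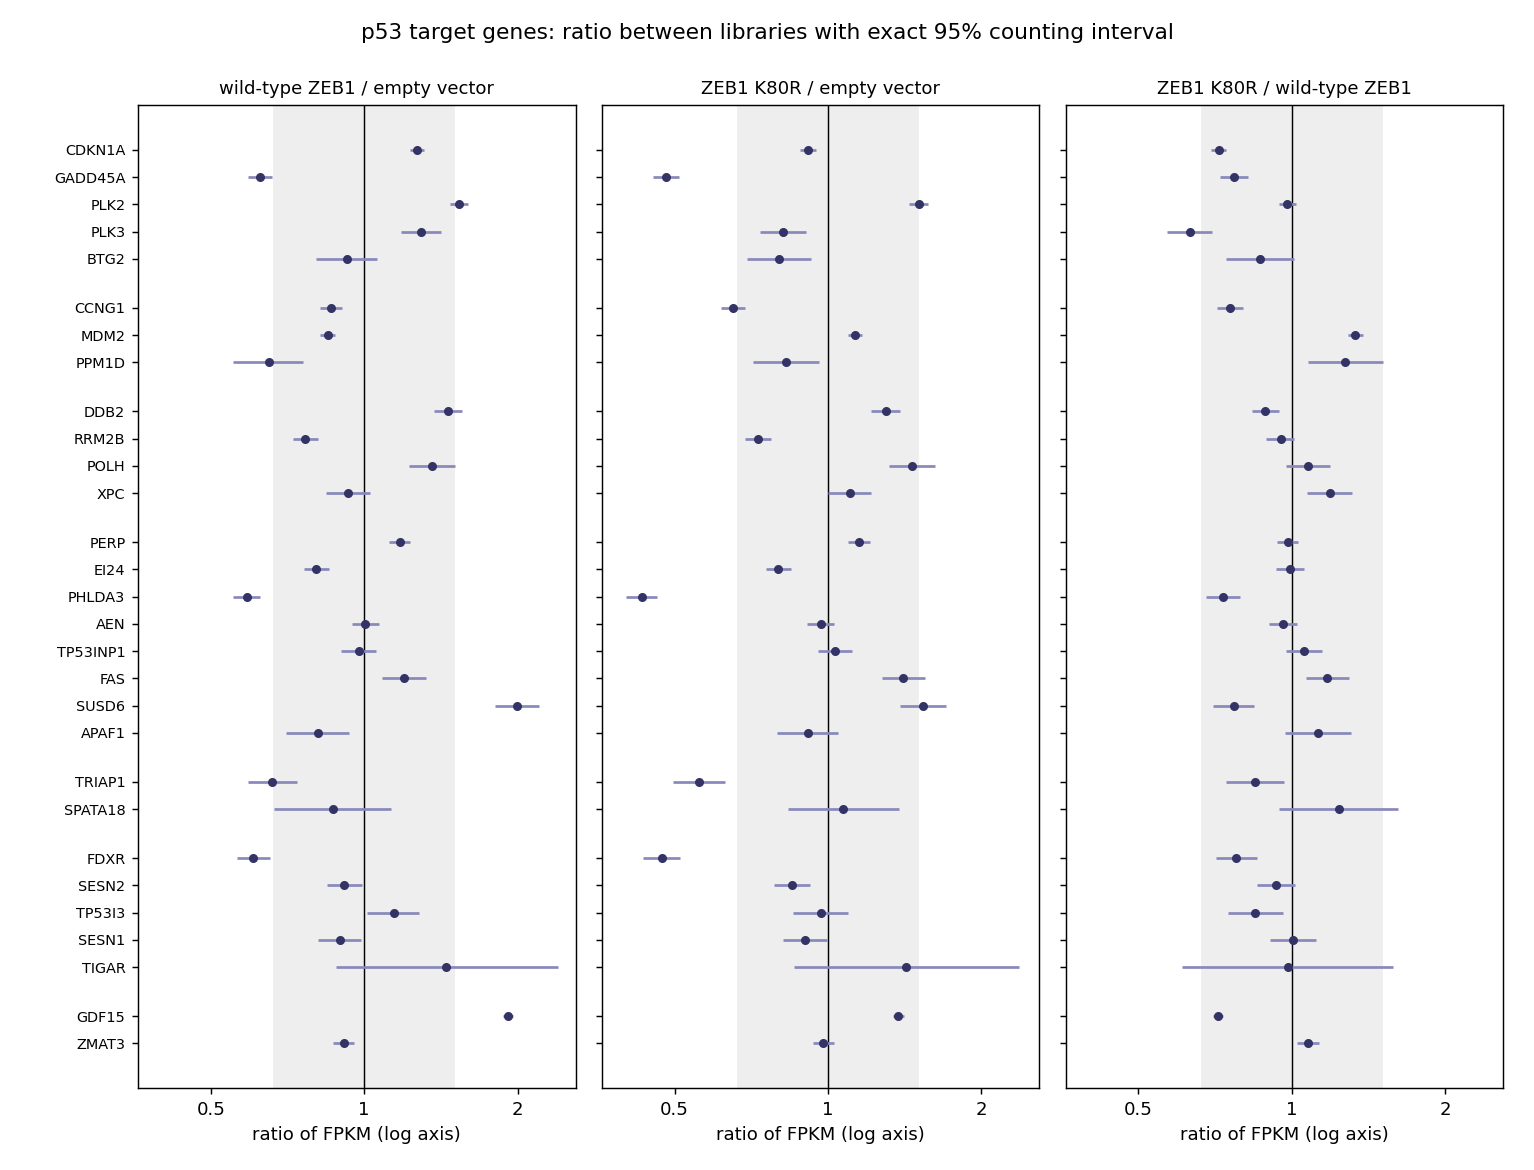
Ratio of FPKM between libraries for the 29 p53 target genes, on a log axis, with bars for the exact 95% counting interval and a grey band for 1.5-fold. PHLDA3, FDXR, GADD45A and TRIAP1 lie left of the band in both panels against empty vector, and in the panel of K80R against wild type only PLK3 lies outside it.

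The 4 targets with the lowest ratio in K80R against empty vector, PHLDA3, FDXR, GADD45A and TRIAP1, have exon lengths of 3138, 3599, 2069 and 1442 bases. Of the other targets between 2069 and 3599 bases, POLH (3540 bases, 1.46) and GDF15 (2087 bases, 1.37) lay above 1 in the same comparison. TP53I3 (2312 bases, 0.967), CDKN1A (3050 bases, 0.914), SESN2 (3453 bases, 0.851) and PLK3 (3479 bases, 0.815) lay below 1. So did BTG2 (2757 bases, 0.801), EI24 (3558 bases, 0.799) and CCNG1 (3096 bases, 0.651). No other target was as short as TRIAP1. The length bins of all genes that hold PHLDA3, FDXR, GADD45A and TRIAP1 had medians from −0.17 to −0.07 in that comparison. After the length and GC correction the differences of the 4 genes were −1.12, −0.82, −0.99 and −0.65, all still past 1.5-fold. The differences of PHLDA3, FDXR, GADD45A and TRIAP1 were −1.19, −1.04, −1.04 and −0.81 as deposited. The part that exon length had in them was not tested.

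**Figure D4:**
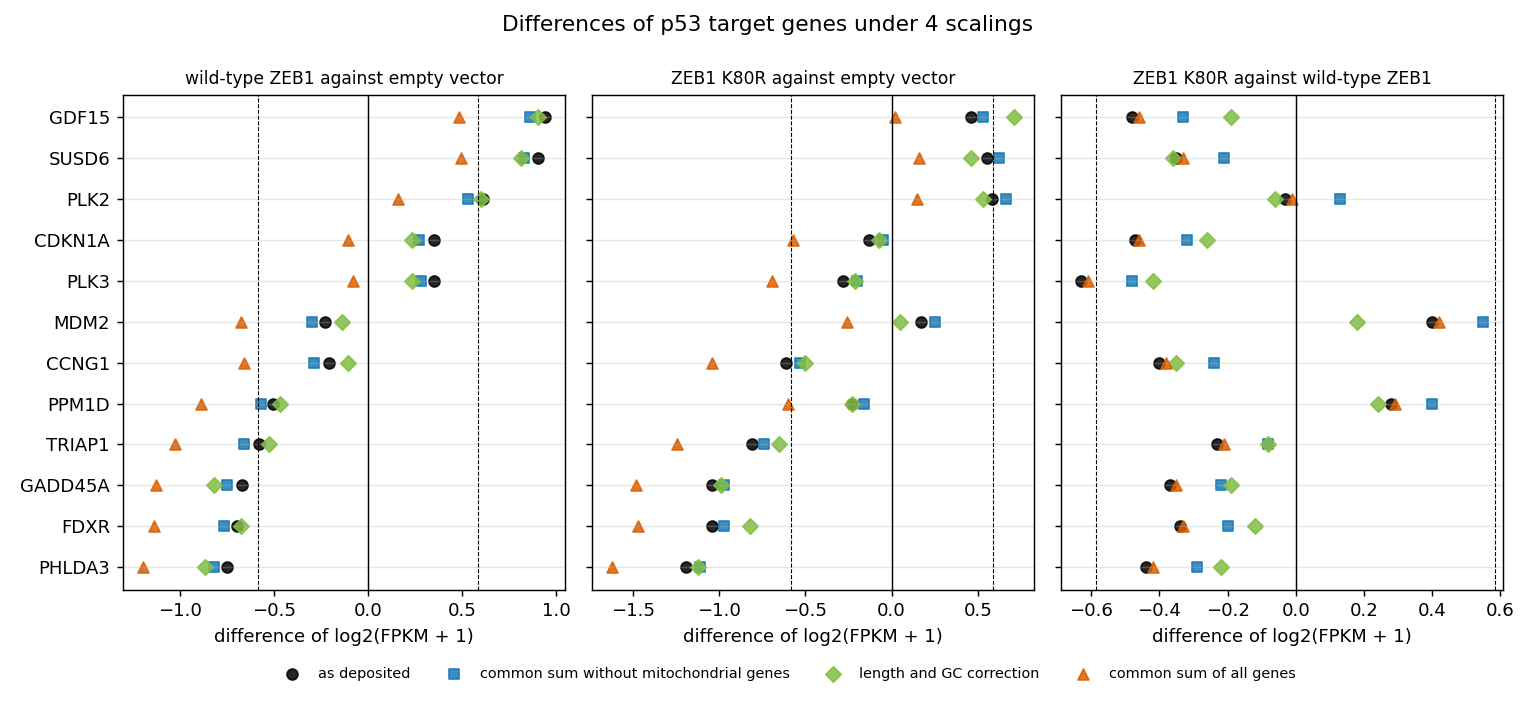
Difference of log2(FPKM + 1) of 12 p53 target genes in each comparison, as deposited (circles), at a common sum without mitochondrially encoded genes (squares), after correction for exon length and GC content (diamonds) and at a common sum of all genes (triangles), with dashed lines at 1.5-fold. The triangles lie to the left in both panels against empty vector, and PHLDA3, FDXR and GADD45A stay left of the dashed line under all 4.

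MDM4, the partner of MDM2 that inhibits p53, was at 7.09, 7.0 and 7.72 FPKM, within 1.5-fold.

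A list of 22 genes of the control of the pathway held 19 that were compared, with 2 higher and none lower in K80R against empty vector, where 12.6% and 13.0% of all genes were. In K80R against wild type none was higher and 1 was lower, where 4.42% and 5.18% of all genes were. In K80R the acetyltransferases EP300 and CREBBP, which acetylate p53 and histones, were at 12.0 against 5.69 FPKM and 6.96 against 3.93, and in wild type they were at 8.49 and 5.26. Both are long transcripts, of 12500 and 15492 exon bases, and after the length and GC correction CREBBP lay within 1.5-fold at 0.55. At a common sum both did, at 0.58 and 0.33. PPP1R13L, which encodes the p53 inhibitor iASPP, was at 12.5, 17.7 and 11.1 FPKM and was the gene lower in K80R than in wild type. Its difference of −0.63 lay within 1.5-fold at a common sum without mitochondrially encoded genes (−0.48) and after the length and GC correction (−0.51). TP63 and CDKN2A, the gene of the MDM2 inhibitor ARF, had 0 reads in all 3 libraries.

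Of 28 further direct p53 targets, 27 were compared. In wild type against empty vector 5 were at least 1.5-fold higher and 1 lower, with a median of 0.23, where 14.2% and 11.1% of all genes were. With libraries at a common sum all 5 of the higher genes lay within 1.5-fold, where 5.92% of all genes were higher. NINJ1 was at 0.53, LIF at 0.57, CSF1 at 0.34, TNFRSF10B at 0.24 and RPS27L at 0.40 on the log2 scale. All 5 stayed past 1.5-fold without mitochondrially encoded genes in the sum (0.86, 0.93, 0.70, 0.62 and 0.75 in the same order). They also did so after the length and GC correction (0.77, 0.85, 0.66, 0.65 and 0.89). In K80R against empty vector none was higher and 2 were lower (median 0.03), where 12.6% and 13.0% of all genes were. In K80R against wild type none was higher and 3 were lower (median −0.19), where 4.42% and 5.18% of all genes were. NINJ1, which drives membrane rupture in dying cells, was at 5.40, 11.2 and 4.99 FPKM, and the cytokine LIF at 15.7, 32.4 and 21.5. BBC3, the gene of the pro-apoptotic protein PUMA, was at 16.0, 22.1 and 11.2, so that wild type was highest for all 3 genes. RAP2B, a small GTPase, was lower in both overexpression libraries, at 31.2, 17.7 and 16.7. Outside the rule for named genes and named after their values were seen, the other genes higher in wild type were CSF1, TNFRSF10B and RPS27L, at 20.95, 36.6 and 21.2, at 133, 216 and 193 and at 10.5, 19.3 and 15.4 FPKM. RPS27L has near-identical copies that can share its reads, so its level is uncertain. In the same way CDIP1, at 10.5, 7.86 and 6.19, was the other gene lower in K80R against empty vector. The genes lower in K80R against wild type were NINJ1, BBC3 and CSF1.

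Genes that p53 lowers through p21 and the DREAM repressor complex went both ways. Of 12 compared, 1 was higher and 2 lower in wild type against empty vector (median −0.16), where 14.2% and 11.1% of all genes were. In K80R against empty vector none was higher and 1 lower (median −0.03), where 12.6% and 13.0% of all genes were. None passed 1.5-fold in K80R against wild type as deposited (median 0.08), where 4.42% of all genes were higher and 5.18% lower. BIRC5, the gene of survivin, was at 46.5, 24.8 and 23.3 FPKM and MYBL2, a cell cycle transcription factor, at 14.2, 6.97 and 10.8. CCNB2, a mitotic cyclin, was at 9.78, 18.0 and 15.1, in the other direction, and lay within 1.5-fold at a common sum (0.39 in wild type). The difference of MYBL2 between K80R and wild type was 0.57 as deposited. It passed 1.5-fold at a common sum without mitochondrially encoded genes (0.71) and after the length and GC correction (0.84).

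Of 8 genes of the integrated stress response, whose factor ATF4 also drives some p53 targets, 2 were higher in wild type against empty vector and none lower, where 14.2% and 11.1% of all genes were. In K80R against empty vector 2 were higher and 2 lower, where 12.6% and 13.0% of all genes were. In K80R against wild type none was higher and 1 was lower (all genes, 4.42% and 5.18%). The median of that comparison was −0.38, against −0.02 over all genes. All 8 lay below 0, and of the 12605 genes 5966 lay above 0. Against empty vector the medians of the 8 were 0.36 in wild type and −0.03 in K80R, where those of all genes were 0.01 and 0.00. DDIT3, the gene of the stress factor CHOP, was at 2.12, 5.49 and 3.96 FPKM and asparagine synthetase, ASNS, at 1.00, 2.34 and 2.09. With a common sum ASNS lay within 1.5-fold of empty vector (0.47 and 0.38) and DDIT3 did so in K80R (0.35), so that neither counted as higher there. DDIT4, an inhibitor of mTORC1, was at 16.9, 15.8 and 7.41 and the pseudokinase TRIB3 at 59.9, 44.6 and 30.2, both lowest in K80R.

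**Figure D5:**
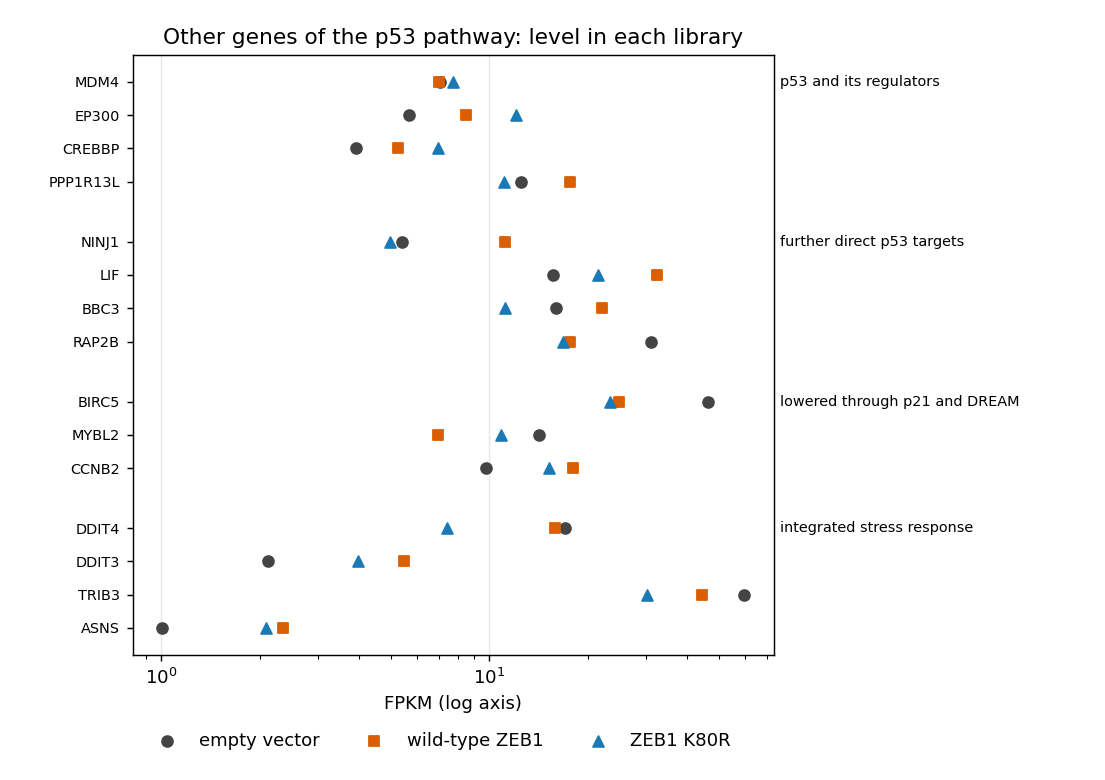
FPKM on a log axis of MDM4 and the genes named from 4 further lists, with 1 point per library (circle, empty vector; square, wild-type ZEB1; triangle, ZEB1 K80R). NINJ1, LIF and BBC3 have their highest point in wild type, EP300 and CREBBP theirs in K80R, and RAP2B and BIRC5 theirs in empty vector.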

How the data were processed

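Each group is 1 library, assigned by the genotype label. RNAiso Plus and a SMARTER mRNA kit were used, per the labels' protocols. CASAVA, featureCounts 1.5.0-p3, DESeq2 1.20.0 and hg38 appear in the submitters' processing notes, their roles unstated. Aligner, annotation and strand setting are not given in the sources used here. FPKM values for 58735 genes, with lengths and coordinates, are what the authors deposited, and every identifier occurs in GENCODE release 29 (GRCh38).

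Reads per gene were recovered from FPKM and length (whole within 0.05 reads for 100.0% of genes above 0) and checked on simulated data. They gave exact conditional (Clopper-Pearson) 95% intervals of ratios, for counting error only. Differences are of log2(FPKM + 1), a scale that understates low genes. Comparison was limited to 12605 genes averaging 1 FPKM or more, and a ratio of FPKM + 1 of 1.5 was the limit. The named genes are all 29 targets, MDM4 and up to 4 genes past 1.5-fold per further list; 1 gene of these lists is not reported here. The targets and lists were chosen with earlier results of these data known. GC content was that of the longest GENCODE transcript, in 10 bins. Alternatives were another pseudocount, other filters and other scalings. Python 3.11.15, pandas 2.3.3 and SciPy 1.17.1 were used.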

Additional observations from a re-analysis of the deposited data

How the results depend on the processing

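Of the 28 targets compared, all but SPATA18 had at least 248 reads in every library, and with 1 library per group the spread between replicates is unknown. No paired analysis was possible because each group had 1 library, and for the same reason no replicate could be left out. No called gene changed sign under any alternative. The length and GC correction was chosen after seeing the data, and causes of shifts were not tested unless stated. Of 40 differences past 1.5-fold among the genes named, 40 kept sign and side with a pseudocount of 0.1, without a filter and with median-ratio scaling, 35 of the 35 with a value did so with a mean FPKM of at least 5, 36 did so at a common sum without mitochondrially encoded genes, 35 after the length and GC correction and 24 at a common sum of all genes.

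For wild type against empty vector, the 3 higher targets became 0 at a common sum of all genes. The 3 lower ones became 10 there and 5 with a pseudocount of 0.1. The median of −0.11 was −0.12 with that pseudocount, −0.10 without a filter, with the stricter filter, with the median ratio and after the length and GC correction, −0.17 at a common sum without mitochondrially encoded genes and −0.52 at a common sum of all genes. For K80R against empty vector, the 0 higher targets became 2 with a pseudocount of 0.1 and at a common sum without mitochondrially encoded genes, and 1 (GDF15) after the length and GC correction. The 5 lower ones became 11 at a common sum of all genes. The median of −0.07 was −0.09 with the pseudocount of 0.1, −0.05 without a filter and with the stricter filter, −0.46 at a common sum of all genes, −0.01 without mitochondrially encoded genes and −0.10 after the correction. For K80R against wild type, the 1 lower target (PLK3) became 0 at a common sum without mitochondrially encoded genes and after the correction. The median of −0.06 was −0.05 without a filter, −0.10 with the stricter filter, −0.04 at a common sum of all genes and after the correction, −0.07 with the median ratio and 0.09 at a common sum without mitochondrially encoded genes. At a common sum of all genes, 7 targets in wild type and 6 in K80R against empty vector had the other sign, none of them past 1.5-fold as deposited.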

Other observations

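Noncoding RNAs tied to the p53 pathway were looked up after the other values had been seen. NEAT1, a p53-induced scaffold of paraspeckles, was at 38.6, 37.3 and 41.6 FPKM for empty vector, wild type and K80R, and GAS5, a host of small nucleolar RNAs, at 72.9, 59.8 and 62.3, both within 1.5-fold. TP53TG1 had 20, 29 and 7 reads, a ratio of K80R to wild type of 0.25 with a counting interval of 0.0924 to 0.583. MIR34AHG, the host transcript of the p53-induced microRNA miR-34a, had 76, 87 and 45 reads, a ratio of K80R to wild type of 0.536 (0.365 to 0.776) at a mean below 1 FPKM. PANDAR, transcribed upstream of CDKN1A, had 0 reads in all 3 libraries.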
